A study of Mus musculus with 8 samples.

Results

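The circadian clock was followed in the liver through 10 genes: Arntl, Npas2, Per1, Per2, Per3, Ciart, Nr1d1 and Nr1d2 of the clock core, and Dbp and Tef of the PAR bZip family of clock outputs. These 10 of the 56884 counted genes were named by symbol and were selected on measured values of the comparison described here, so their differences between groups are given as a description and without p-values. Each symbol matched a single Ensembl identifier, and Arntl is the gene also written Bmal1.

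Poly(A) RNA was sequenced from the liver of 8 female C57BL/6J mice aged 18 months, with 1 library per mouse. In both groups obesity was induced from the age of 2 months by ad libitum feeding of a high-fat diet that supplied 45% of its energy as lipids. After 4 months the DIO group (diet-induced obese, n = 3, replicates 1, 4 and 5) stayed on this diet, with a mix of tocopherols added. In the DIO + DHA group (n = 5, replicates 1, 2, 4, 5 and 6) a fish oil concentrate with 683.4 mg of docosahexaenoic acid (DHA) and 46.7 mg of eicosapentaenoic acid per g took the place of 15% by weight of the dietary lipids, and this concentrate carried the same tocopherols. All mice lived under a light and dark cycle and were killed after an overnight fast, the work was not blinded, and no lean or untreated group is part of the comparison. The hour at which each liver was collected is not given in the sources used here, so the part of collection time in any value below was not tested.

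The molecular clock is a feedback loop of transcription that turns once a day in almost every cell. Arntl (BMAL1) pairs with CLOCK, or with its relative NPAS2, binds E-box sequences and drives the period genes, the cryptochromes, Ciart, Nr1d1, Nr1d2 and Dbp. The period and cryptochrome proteins then inhibit the CLOCK and BMAL1 pair, as does CIART (also called CHRONO). The nuclear receptors encoded by Nr1d1 and Nr1d2 (REV-ERB alpha and beta) repress Arntl and Npas2 through ROR response elements, on which the ROR receptors activate, so that Arntl peaks at the opposite time of day from Dbp. DBP, TEF and HLF activate genes through D-boxes, against the repressor NFIL3, and in the liver they act on genes of drug, haem and lipid metabolism. The liver clock is set by meals, glucocorticoids and body temperature.

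The elements of this loop can be read in the sequence upstream of several of the 10 genes, and the stretches below show examples, not every match. They were read from the mouse genome GRCm39, 5′ to 3′ on the strand of the gene, with the matched element in capitals. Ciart has a tandem of E-boxes in the interval chr3:95789579-95789608 on the minus strand, at 42 and 28 bases before the start of its canonical transcript. Per1 has an E-box at 22 bases before its start (chr11:68989232-68989261, plus strand), and Tef has 1 at 138 bases (chr15:81695465-81695494, plus strand). Nr1d1 has an E-box at 367 bases and the variant E′-box at 354 bases (chr11:98666502-98666531, minus strand). Per2 has a D-box at 125 bases (chr1:91387153-91387182, minus strand), and Per3 has D-boxes at 187 and 140 bases (chr4:151129310-151129339 and chr4:151129262-151129291, minus strand). Dbp has the core of a ROR response element at 189 bases (chr7:45354312-45354341, plus strand).
Ciart: cagggggaggCACGTGcagaaccgCACGTG
Per1: tcaccccttaacgaCACGTGggccctcaat
Tef: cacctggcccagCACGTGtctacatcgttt
Nr1d1: ccaatCACGTGaagctctCACGTTtgctag
Per2: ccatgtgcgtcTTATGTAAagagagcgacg
Per3, distal: ccgacccgcgcgTTATGTAAggtactcggg
Per3, proximal: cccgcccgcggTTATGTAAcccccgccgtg
Dbp: ttggccaaataTAGGTCAgtgtcccgcctt

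The search covered 1000 bases before the canonical start of each gene on both strands, for the E-box CACGTG, the E′-box CACGTT, the D-box TTATGTAA, the ROR element core TAGGTCA and the cyclic AMP element TGACGTCA, and no matches of different elements overlapped in the 10 genes. The E-box was found in 4 of the 10 genes (Ciart with 4 matches, Tef with 3, Per1 with 2, Nr1d1 with 1) and in 15.5% of 21667 protein-coding promoters of the same length. The D-box was found in 3 of the 10 (Per3 with 3 matches, Per2 and Ciart with 1 each) and in 4.2% of all promoters. The E′-box was found in Ciart and Nr1d1, with 2 matches in each, and in 15.3% of all promoters. The ROR element core was found in Dbp alone of the 10 and in 9.37% of all promoters, and the cyclic AMP element in none of the 10 and in 2.21% of all promoters. Among 30 other clock and clock output genes listed below, 7 had an E-box, 7 an E′-box, 2 a ROR element core, 2 the cyclic AMP element and none the D-box. A match describes these letters in this interval and is not a binding site. The canonical starts of Per1 and Tef lie inside the annotated span of each gene, downstream of the start of longer transcripts, so their stretches are upstream of the canonical transcript and within the gene. The stretches of Nr1d1, Tef, Dbp and the distal Per3 stretch also lie on exons of the neighbouring genes Gm31862, Gm17597, Car11 and Gm69444, in that order. Sequence outside these intervals was not searched.

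Libraries held 1723800 to 5690347 counts, and DIO replicate 1 was the shallowest. Of 12412 genes that passed the filter on low counts, 1883 (15.2%) differed between the groups at the 0.05 threshold on Benjamini-Hochberg adjusted p-values from the quasi-likelihood test of edgeR. Of all tested genes, 7.89% were called higher and 7.28% lower in DIO + DHA. Hepatocyte markers held 86100 to 91200 CPM (counts scaled to a common library size) in sum in the DIO libraries and 93500 to 109000 in DIO + DHA, as the liver label implies. The 16 skeletal muscle markers were all detected and all rose, from 36.7 to 43.9 CPM in sum in DIO to 1360 to 1500 CPM in DIO + DHA. The difference of means was 1380 CPM (exact two-sided permutation p = 0.0179, the smallest that 56 arrangements can give). Every other list of cell type markers given here reached the same p, except that of cholangiocytes. The muscle list was chosen with earlier results of these data known, so its p is a description. The 8 markers of squamous epithelium went from 0 to 1.08 CPM to 51.3 to 56 CPM, with 6 of them (Krt5, Krt14, Krt13, Krt15, Lgals7 and Trp63) at 0 in every DIO library. Both sums lay within a narrow range over the 5 DIO + DHA libraries, and how RNA of these tissues came into them, in the animal or in the handling of the libraries, was not tested. This bears on every difference between the groups. Of 11 macrophage markers 9 fell and 1 rose (726 to 817 CPM in sum in DIO, 407 to 440 in DIO + DHA), and of 7 tested T and NK cell markers 5 fell (131 to 150 CPM against 46.8 to 55.3). Adipocyte markers summed to 0 to 1.69 CPM in DIO, with Plin1, Ucp1 and Lep at 0 in every library, and to 8.53 to 15.8 CPM in DIO + DHA. Endothelial markers summed to 150 to 168 against 104 to 127 CPM, and stellate cell markers to 299 to 313 against 244 to 276 CPM, while cholangiocyte markers overlapped (57.2 to 63.6 against 56.4 to 69.6 CPM). The part of these other cell types in the clock values below was not tested. In bulk tissue, fewer cells of a type and less RNA per cell cannot be told apart.

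Of the 10 clock genes, 9 passed the filter and Npas2 did not. Of those 9, 6 were below the adjusted p threshold, all lower in DIO + DHA (Ciart, Per1, Per2, Per3, Nr1d2 and Tef), where 7.28% of all tested genes were lower, and 3 were not (Arntl, Nr1d1 and Dbp). The 3 DIO and 5 DIO + DHA libraries did not overlap for 8 of the 10, against 18.4% of the tested genes. Since the genes were selected on this contrast, nothing is read from these counts. The median log2 fold change of the 9 genes was -0.70, with 7 lower and 2 higher, beside a median of 0 over all tested genes.

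**Figure D1:**
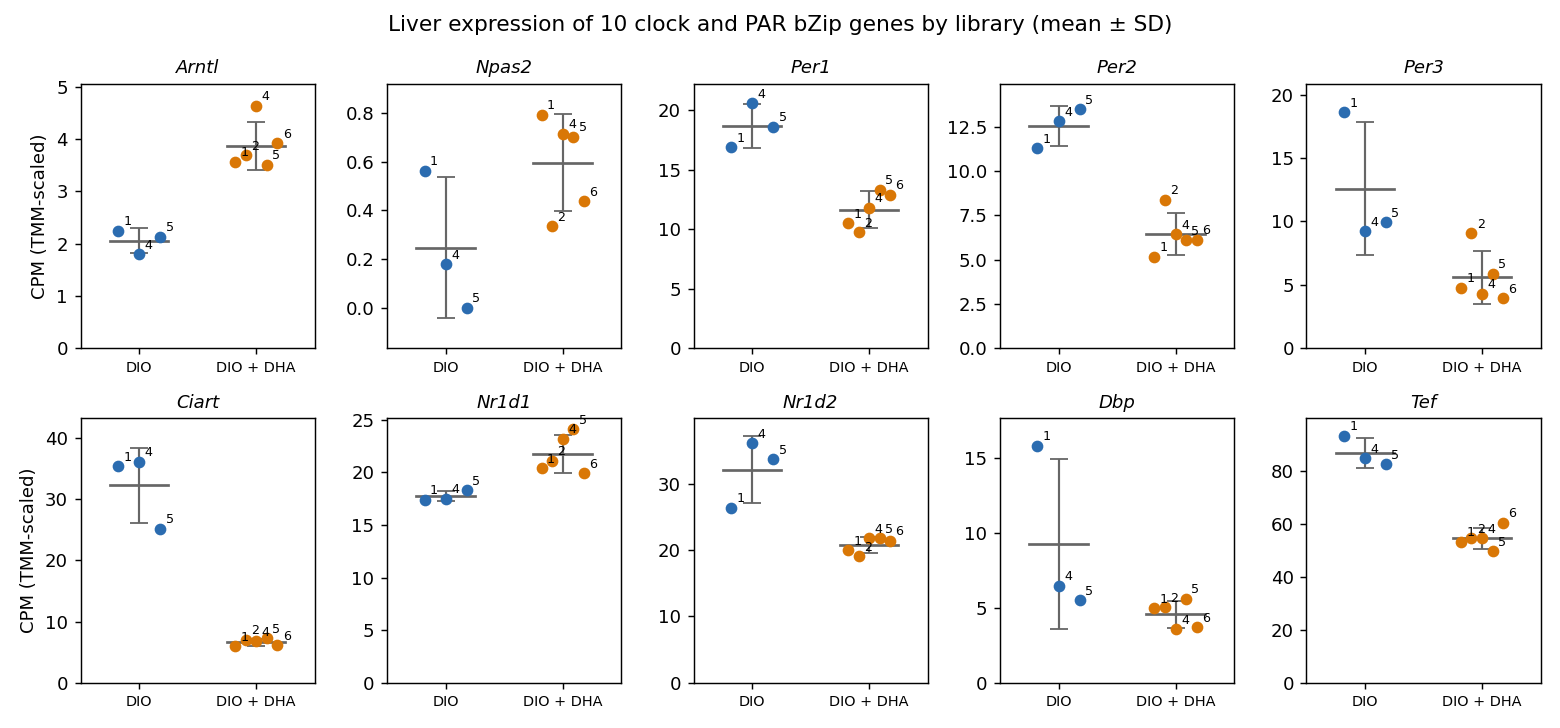
Expression of the 10 clock and PAR bZip genes in each liver library, in CPM after TMM scaling; points are libraries labelled by replicate number, long bars are group means and error bars are SD. Ciart, the period genes, Nr1d2 and Tef are lower in all 5 DIO + DHA libraries than in the 3 DIO libraries, Arntl and Nr1d1 are higher, and Dbp and Npas2 overlap.

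Values per library are given below as TMM-scaled CPM, for DIO replicates 1, 4 and 5 and then for DIO + DHA replicates 1, 2, 4, 5 and 6. Because the libraries are enriched in 3′ ends and the counts were not divided by gene length, levels are compared between groups and not between genes. Fold changes are log2 of DIO + DHA over DIO from the edgeR fit, with the standard error (SE).

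Of the activator arm, Arntl (chr7:112806672-112913333, plus strand, GRCm39) was at 2.25, 1.80 and 2.13 CPM in DIO and at 3.57, 3.69, 4.64, 3.51 and 3.93 CPM in DIO + DHA. All 5 supplemented mice were above all 3 others. On average Arntl was at 2.06 ± 0.231 CPM in DIO (SD, n = 3) and at 3.87 ± 0.459 CPM in DIO + DHA (SD, n = 5), and the fitted log2 fold change was 0.92 (SE 0.34). The counts behind these values were low, with 26 counts in the DIO libraries together and 75 in DIO + DHA, so that the ratio of the rates was 1.90 with a 95% exact interval of 1.2 to 3.09 for counting error only. The coefficient of variation between DIO mice was 11.2%, where counting error alone gives 39.1%.

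Npas2 (chr1:39232812-39402317, plus strand) had 1, 1 and 0 counts in the DIO libraries and 4, 1, 2, 3 and 2 in DIO + DHA. Its summed counts of 2 and 12 gave a ratio of 3.95 with a 95% exact interval of 0.88 to 36.4. A difference in Npas2 was not detectable at this depth.

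Among the repressors, Ciart (chr3:95785815-95789563, minus strand) differed most. Its values were 35.4, 36.1 and 25.2 CPM in DIO and 5.95, 7.04, 6.78, 7.26 and 6.11 CPM in DIO + DHA. All 5 supplemented mice lay far below all 3 others. Ciart averaged 32.2 ± 6.10 CPM and 6.63 ± 0.573 CPM, a log2 fold change of -2.26 (SE 0.16), or 4.80 times lower, which placed it at rank 10 of the 12412 tested genes by size of decrease. The 5 DIO + DHA libraries held only 19 to 31 counts each, and the ratio of summed counts (405 and 129) was 0.21 with a 95% interval of 0.171 to 0.256. The spread between those 5 mice, 8.64%, was smaller than the 20.2% that counting error gives.

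The period genes encode the proteins that close the negative limb. Per1 (chr11:68986043-69000786, plus strand) was at 16.9, 20.6 and 18.6 CPM in DIO and at 10.5, 9.72, 11.8, 13.3 and 12.9 CPM in DIO + DHA, a log2 fold change of -0.70 (SE 0.16). Per2 (chr1:91343704-91387046, minus strand) was at 11.3, 12.8 and 13.5 CPM and at 5.16, 8.38, 6.42, 6.09 and 6.11 CPM, a log2 fold change of -1.02 (SE 0.20). The groups stood apart for both genes, and DIO + DHA replicate 2 was the lowest of its group for Per1 and the highest for Per2. Per3 (chr4:151088109-151129122, minus strand) was at 18.6, 9.20 and 9.94 CPM in DIO and at 4.76, 9.05, 4.28, 5.86 and 3.93 CPM in DIO + DHA, a log2 fold change of -1.05 (SE 0.24). Here the groups nearly met, since DIO + DHA replicate 2 lay just under DIO replicate 4. Per3 was also the more variable of the 3, with a coefficient of variation of 41.4% in DIO and 37.2% in DIO + DHA against counting errors of 16.9% and 22.3%. Without DIO replicate 1, its highest library, the log2 fold change of Per3 was -0.81.

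The genes of the REV-ERB receptors lay on opposite sides. Nr1d2 (chr14:4230569-4265642, plus strand) was at 26.4, 36.1 and 33.7 CPM in DIO and at 20.0, 19.1, 21.8, 21.8 and 21.4 CPM in DIO + DHA. Its means were 32.1 ± 5.02 and 20.8 ± 1.2 CPM, a log2 fold change of -0.67 (SE 0.13), with every supplemented mouse below every DIO mouse. Nr1d1 (chr11:98658758-98666159, minus strand) was at 17.4, 17.5 and 18.3 CPM in DIO and at 20.4, 21.1, 23.2, 24.1 and 19.9 CPM in DIO + DHA. Its means were 17.7 ± 0.469 and 21.7 ± 1.83 CPM, a log2 fold change of 0.28 (SE 0.14), so Nr1d1 lay on the higher side in all 5 mice but did not pass the adjusted threshold. Of the exon bases of Nr1d1, 8.55% are shared with Thra on the opposite strand, and the unstranded counting leaves out reads that fall on both. The shared bases lie at the 3′ end of Nr1d1, where these libraries are enriched, and the share of its reads left out was not tested. Thra itself averaged 10.9 and 14.8 CPM (log2 fold change 0.42, adjusted p = 0.1).

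The PAR bZip genes carry the rhythm to the metabolism of the liver. Tef (chr15:81686622-81711064, plus strand) was at 93.4, 84.9 and 82.7 CPM in DIO and at 53.4, 54.6, 54.6, 49.7 and 60.5 CPM in DIO + DHA. It was the most precisely measured of the 10 genes, with 1103 and 1074 summed counts, a log2 fold change of -0.66 (SE 0.09) and a spread between mice of 6.49% and 7.14% against counting errors of 6.00% and 7.01%. Dbp (chr7:45354512-45359627, plus strand) was at 15.8, 6.49 and 5.50 CPM in DIO and at 4.96, 5.03, 3.57, 5.62 and 3.71 CPM in DIO + DHA. The groups overlapped, because DIO + DHA replicate 5 exceeded DIO replicate 5. The log2 fold change of Dbp was -0.74 (SE 0.27) with all libraries and -0.37 without DIO replicate 1, where Dbp was highest and rested on 28 counts. Dbp shares 18% of its exon bases with Sphk2 on the opposite strand, at the 3′ end of Dbp, where these libraries are enriched. The share of Dbp reads left out by the counting was not tested. Sphk2 averaged 45.3 and 54 CPM (log2 fold change 0.23, adjusted p = 0.16).

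**Figure D2:**
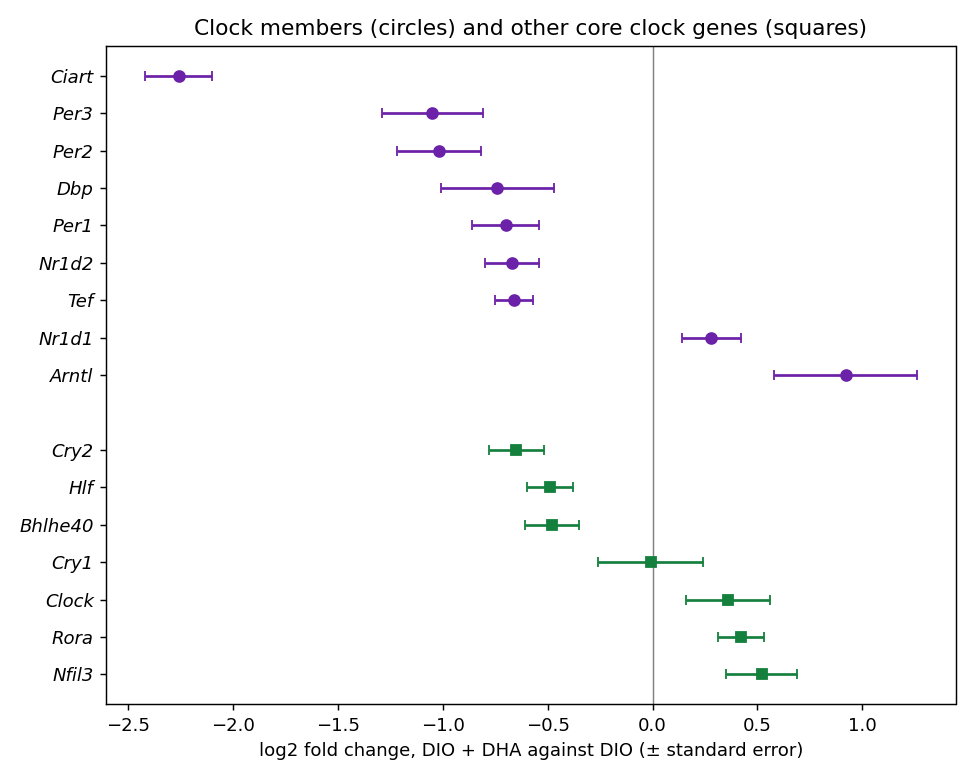
Log2 fold change of DIO + DHA against DIO with its standard error from the edgeR fit, for the 9 tested clock genes of the selection (circles) and 7 other tested core clock genes (squares), each ordered by value. Ciart lies apart at -2.26, most of the others lie between -1.05 and -0.48, and Arntl, Nr1d1, Nfil3, Rora and Clock lie on the positive side.

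Ratios between clock genes inside a library do not depend on the scaling between libraries, and their difference between groups does not depend on gene length. The log2 ratio of Dbp to Arntl counts was 2.66, 1.80 and 1.33 in DIO and 0.46, 0.43, -0.36, 0.66 and -0.08 in DIO + DHA, a difference of -1.71 between the group means. Leaving out each library in turn gave differences from -2.01 to -1.34. For Ciart to Arntl the ratios were 3.82, 4.26 and 3.51 in DIO and 0.72, 0.90, 0.53, 1.02 and 0.62 in DIO + DHA, a difference of -3.10. The groups did not overlap in either ratio. Each pairs a gene with a negative log2 fold change with Arntl, whose log2 fold change was positive, and neither Dbp nor Arntl passed the adjusted threshold.

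The ratio of Nr1d2 to Nr1d1, whose proteins act on the same elements, was 0.59, 1.04 and 0.88 in DIO and -0.03, -0.14, -0.09, -0.15 and 0.11 in DIO + DHA, a difference of -0.90. Tef to Nr1d1 differed by -0.96 and Ciart to Nr1d1 by -2.53, so that Nr1d2, Tef and Ciart were all lower relative to Nr1d1 in every supplemented mouse than in any DIO mouse. For Dbp to Tef, of the same protein family, the groups overlapped. The values were -2.55, -3.69 and -3.89 in DIO and -3.40, -3.40, -3.87, -3.12 and -3.99 in DIO + DHA, a difference of -0.18 that turned to 0.24 without DIO replicate 1. In the other 5 ratios the groups did not overlap, so leaving out a library could not change their sign. Leaving out libraries was added as an alternative after the values were seen, except for Dbp to Arntl.

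**Figure D3:**
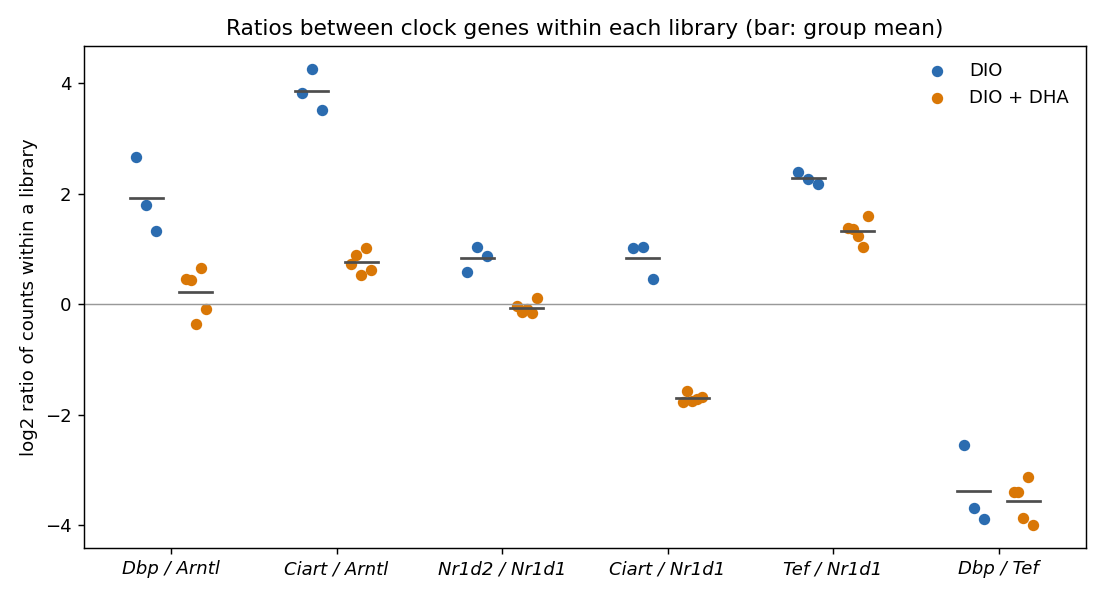
Log2 ratio of the counts of 2 clock genes within each library, with 0.5 added to each count; points are libraries and bars are group means. The groups are apart for every pair except Dbp to Tef, and the difference in means is -3.10 for Ciart to Arntl and -0.18 for Dbp to Tef.

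The rest of the core clock was examined through 11 further genes, of which 8 were tested and Rorb, Bhlhe41 and Arntl2 were too low. Of the 8, 2 rose and 4 fell, beside 7.89% and 7.28% of all tested genes, and the median log2 fold change was -0.25. Cry2, a cryptochrome that represses CLOCK and BMAL1, fell from 29.4 ± 2.12 to 18.8 ± 2.58 CPM (log2 fold change -0.65, SE 0.13, adjusted p = 0.00016), with 27.0 to 31.1 CPM in DIO and 14.7 to 21.3 CPM in DIO + DHA. Its relative Cry1 was at 5.19 and 5.51 CPM (log2 fold change -0.01, SE 0.25, adjusted p = 0.98). Bhlhe40, which competes for E-boxes, fell from 30.9 ± 1.97 to 21.7 ± 1.5 CPM (log2 fold change -0.48, adjusted p = 0.0043). Clock itself was at 8.38 ± 2.61 and 11.8 ± 1.97 CPM and was not called (log2 fold change 0.36, SE 0.20, adjusted p = 0.25).

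Rora, an activator on ROR elements, rose from 34.9 ± 1.97 to 47.3 ± 4.41 CPM (log2 fold change 0.42, adjusted p = 0.0038). Hlf, the third PAR bZip factor, fell from 43.7 ± 3.27 to 30.7 ± 2.61 CPM (log2 fold change -0.49, adjusted p = 8e-04), the direction in which Tef differed. Dbp was not called, and its groups overlapped. Nfil3, the repressor on D-boxes, rose from 14.5 ± 2.96 to 20.3 ± 4.97 CPM (log2 fold change 0.52, adjusted p = 0.036), but its groups overlapped and it was called in only 9 of 18 alternative settings, being lost without DIO replicate 4 and without each of the DIO + DHA replicates 1, 2 and 4.

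Of 27 kinases, ubiquitin ligase parts, corepressors and chromatin factors that act on clock proteins, none passed the adjusted threshold of edgeR, DESeq2 or limma-voom, beside 15.2% of all tested genes with edgeR. An unadjusted edgeR p under 0.05 was found for 4 of the 27, beside 3135 of the 12412 tested genes. The median log2 fold change of the 27 genes was -0.06 and the median absolute change 0.18, beside 0.22 for all tested genes. Leaving out single libraries gave 0 to 2 calls.

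Clock outputs of the liver changed in both directions. The 19 genes were listed as outputs of E-box, D-box or ROR control, and direct control of each was not tested. Of these, 6 rose, 8 fell and 5 were not called, beside 7.89% higher and 7.28% lower of all tested genes. The median absolute log2 fold change was 0.85, beside 0.22 for all tested genes. The 8 with the smallest p-values were Upp2, Alas1, Usp2, Cyp2a5 and Noct among those that fell, and Cyp2b10, Insig2 and Cdkn1a among those that rose.

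Usp2, a deubiquitinase with a strong daily rhythm in liver, was at 59.1, 55.2 and 66.2 CPM in DIO and at 23.6, 18.4, 18.9, 20.1 and 20.5 CPM in DIO + DHA (log2 fold change -1.55, SE 0.11, adjusted p = 5.1e-17). Upp2, a uridine phosphorylase, fell from 216 ± 8.63 to 86.6 ± 6.73 CPM (log2 fold change -1.31, adjusted p = 9.2e-21). Alas1, the rate-limiting enzyme of haem synthesis, fell from 714 ± 3.61 to 332 ± 39.4 CPM (log2 fold change -1.10, adjusted p = 7.1e-19). Cyp2a5, a cytochrome P450 that DBP, TEF and HLF act on, fell from 323 ± 17.8 to 169 ± 11.1 CPM (log2 fold change -0.94, adjusted p = 3.2e-16). Noct, the deadenylase-related protein nocturnin, fell from 23.6 ± 1.03 to 12.1 ± 1.58 CPM (log2 fold change -0.95, adjusted p = 2e-06). Each of these 5 genes was lower in all 5 supplemented mice than in any DIO mouse.

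The largest rise was that of Cyp2b10, a cytochrome P450 of drug metabolism, at 3.38, 1.44 and 2.48 CPM in DIO and at 49.4, 42.2, 54.2, 44.7 and 40.8 CPM in DIO + DHA (log2 fold change 4.39, SE 0.20, adjusted p = 1.1e-25). Insig2, which holds back sterol synthesis and is a target of REV-ERB alpha, rose from 164 ± 10.6 to 392 ± 28.1 CPM (log2 fold change 1.24, adjusted p = 3.8e-20). Cdkn1a, an inhibitor of the cell cycle, rose from 57.1 ± 2.44 to 104 ± 3.17 CPM (log2 fold change 0.85, adjusted p = 2e-11). The other 6 called outputs had log2 fold changes from -0.66 to 0.98. Many of these genes answer to other signals besides the clock, and the part of each was not tested.

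**Figure D4:**
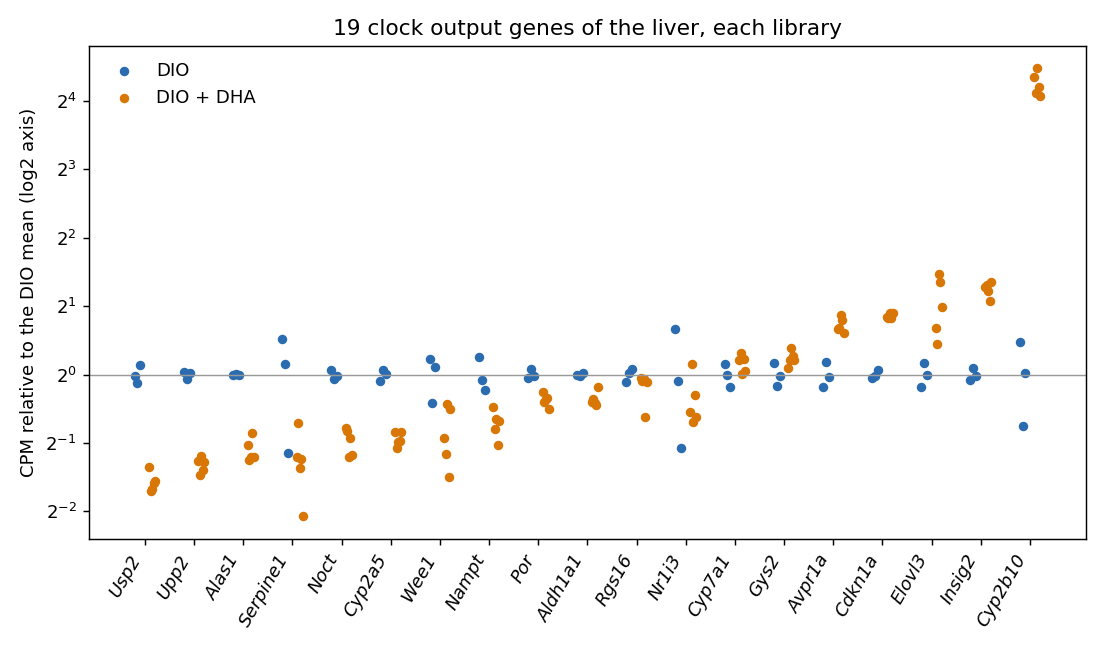
CPM of 19 clock output genes of the liver in each library, relative to the mean of the 3 DIO libraries, on a log2 axis and ordered by fold change. Points of the 5 DIO + DHA libraries lie below the DIO points for Usp2, Upp2 and Alas1 and above them for Insig2 and Cyp2b10.

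Genes that report on the cues that set the liver clock were mixed. Of 16 glucocorticoid and fasting genes, 6 rose, 5 fell and 5 were not called, beside 7.89% higher and 7.28% lower of all tested genes, and the median was 0.07 on the log2 scale. Among glucocorticoid targets, Fkbp5, a co-chaperone of the glucocorticoid receptor, fell from 104 ± 1.55 to 51.4 ± 5.23 CPM (log2 fold change -1.02, adjusted p = 8.1e-14). Tsc22d3 (log2 fold change -0.60, adjusted p = 6.9e-06), Lpin1 (-0.52, adjusted p = 1.9e-04) and Klf9 (-0.37, adjusted p = 4.3e-04) fell as well. Named after their values were seen, the glucocorticoid target Tat rose (0.24, adjusted p = 0.01, a call lost without DIO + DHA replicate 4), while Sgk1 (0.11) and Dusp1 (-0.11) were not called. Of the genes of fasting, Pdk4 (log2 fold change 2.27, adjusted p = 9.8e-14), Ppargc1a (2.04, adjusted p = 7e-16), G6pc (0.59, adjusted p = 1.3e-06) and Igfbp1 (0.49, adjusted p = 0.003) rose. The call for Igfbp1 was lost when the replicate number was added to the fit as a block. Pck1 (0.01), Cpt1a (0.07) and Angptl4 (0.07), also named after their values were seen, were not called. Pdk4 and Ppargc1a are also expressed in skeletal muscle and brown fat, whose markers were higher in the same libraries (Ucp1 at 0 in all 3 DIO libraries and at 2.85 to 5.03 CPM in DIO + DHA), and the part of those tissues was not tested.

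Of 16 temperature-responsive genes 15 were tested and Hspa1a was too low. Of these, 5 rose, 3 fell and 7 were not called, beside the same shares of all tested genes, and the median log2 fold change was 0.01. Hspb1, a small heat shock protein that skeletal muscle also makes, rose from 12.1 to 29.8 CPM (log2 fold change 1.36, adjusted p = 1.2e-10) beside the rise of the muscle markers. The mitochondrial chaperones Hspe1 and Hspd1 rose by 0.34 and 0.32 on the log2 scale, and the cytosolic Hsp90aa1 and Hsp90ab1 by 0.27 and 0.20. The chaperone Hspa8 fell from 768 to 627 CPM (log2 fold change -0.30, adjusted p = 3.6e-04), as did its partners Dnaja1 (-0.30) and Hsph1 (-0.33). The calls for Hsp90aa1, Hsp90ab1, Dnaja1 and Hsph1 were lost without DIO replicate 4, and Hsp90aa1 and Hsp90ab1 were called in 11 and 12 of 18 alternative settings. The calls for Hspd1, Hsp90aa1 and Hsp90ab1 were also lost without DIO replicate 5, and that for Hsph1 without DIO replicate 1 and without DIO + DHA replicate 5.

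Genes whose profile over the 8 libraries was nearest to that of Dbp or Arntl were looked up among 8220 tested genes whose mean reached 5 CPM, by the root mean square difference of their centred log2 CPM. Nearest to Dbp were 2900005J15Rik at 0.22, Adgrl2, Cemip2 and Sec14l1 at 0.24 and Ddx54 at 0.25, which are distant matches. Like Dbp, all 5 had their highest value in DIO replicate 1, such as 10.7 CPM for 2900005J15Rik against 6.13 and 6.03 in the other DIO libraries. Nearest to Arntl were Socs2 at 0.07, Rarres1 and Lhpp at 0.09, Cimap1b at 0.10 and Retreg1 at 0.11, all much closer. Socs2, a feedback inhibitor of growth hormone signalling, was at 16.3, 13.5 and 15.4 CPM in DIO and at 23.8, 26.8, 27.5, 23.4 and 25.8 CPM in DIO + DHA. Ciart was added to this search after its values had been seen. The acute-phase genes Saa1, Orm2 and Saa2 were nearest to it at 0.23, then Steap4 at 0.29 and the chemokine Ccl5 at 0.30, and Saa1 averaged 3190 ± 105 CPM in DIO and 793 ± 60 CPM in DIO + DHA. The points share libraries and depth, and a difference between 2 groups fixes most of each profile.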

How the data were processed

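Liver RNA of 3 DIO and 5 DIO + DHA mice was analysed, with groups and replicate numbers taken from the sample titles. The labels place all libraries in a single batch. The deposited counts are whole numbers per gene without normalization, which the authors made from an adapted SCRB-seq protocol (3′-enriched cDNA) by trimming, alignment to GRCm39 with STAR 2.7.9a and counting on GENCODE release 33 exons with featureCounts 1.6.0. The 8 counting commands carry no option for strandedness, multi-mapped reads or overlapping genes. Collapsing of reads by molecular identifier is not given in the sources used here, so intervals cover counting error only. Names came from GENCODE release 39, which held 56323 of 56884 identifiers. The median total was 4495644 counts.

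Following the study's methods, genes with fewer than 5 counts in over 50% of the libraries of both groups were left out. CPM are TMM-scaled. The main test was edgeR's quasi-likelihood test (version 4.0.16, R 4.3.3), robust, and p-values were adjusted by Benjamini-Hochberg over all tested genes. The common biological coefficient of variation was 0.0801. The study's own test, limma-voom with B above 0 (limma 3.58.1), and the Wald test of DESeq2 1.42.0 were alternatives, with other scalings, other filters, the replicate block and leaving out each library. Marker sums are given as ranges, and the p of the skeletal muscle list and of the other marker lists came from exact permutation.

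The 10 genes and all lists were chosen with earlier results of these data known. Named are the 10 genes, tested genes of the other core clock list (1 is counted but not reported here), up to 8 called genes per further list by smallest p, and the 5 genes nearest to Dbp and Arntl. Outside this rule, Tat, Sgk1, Dusp1, Pck1, Cpt1a, Angptl4 and the genes nearest to Ciart were named after their values were seen. Between libraries of a group, chi-square per degree of freedom was 1.93 to 5.2. Reads not collapsed by molecular identifier would raise this value too, so it cannot show that the libraries came from separate mice. Each was counted as 1 sample, as labelled. P-values set the difference between the groups against the spread between these mice. The mice shared cages, and the cage of each mouse is not given in the sources used here, so the part of cages was not tested. Promoter elements were matched on GRCm39 upstream of GENCODE release 39 canonical transcripts.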

Additional observations from a re-analysis of the deposited data

How the results depend on the processing

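The log2 fold changes of the 9 tested clock genes kept their sign in all 16 or 17 alternative settings each. They ranged from -2.43 to -2.12 for Ciart, -1.27 to -0.81 for Per3, -1.01 to -0.37 for Dbp and 0.82 to 0.99 for Arntl. Of the 10 genes, 6 or 7 were called throughout. The genes were selected on this contrast, and except for Dbp the groups of the tested ones did not overlap. Nothing is therefore read from the kept signs and calls. Another scaling moved the median of all genes by at most 0.018 in size. The stricter limma-voom call (B above 0) gave 860 calls over all genes against 1883, with 2 other core clock genes (Cry2 and Hlf), 7 glucocorticoid and fasting genes and 3 temperature-responsive genes, and the Wald test of DESeq2 gave 5 of the last kind. Leaving out each library in turn gave 0 to 2 clock modifiers and 5 to 8 temperature-responsive genes, the latter 5 without DIO replicate 4, and the cause was not tested. The difference in the ratio of Dbp to Tef ranged from -0.44 to 0.24 with single libraries left out and reversed without DIO replicate 1. Clock outputs ranged from 12 to 15 calls over all settings, and the summed muscle markers differed by 1360 to 1400 CPM with single libraries left out. Same-numbered libraries did not deviate together over all tested genes (r = -0.01 for each of the replicates 1, 4 and 5). These values give no sign that the numbers pair the mice, but cannot exclude a cue shared by a few genes. With the replicate block, 1538 genes, 6 of the 10 clock genes, 5 other core clock genes without Nfil3, 14 outputs and 8 glucocorticoid and fasting genes (without Igfbp1, Klf15 and Irs2) were called. Depth limits Arntl, with 4 to 18 counts per library, and above all Npas2, with 0 to 4. For Dbp, with 10 to 36 counts, the coefficient of variation between DIO mice was 61.1%, where counting error alone gives 20.5%.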
